A study of Mus musculus with 27 samples.

Results

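The p53 target genes described here are 34 mouse genes: Trp53, which encodes the transcription factor p53, and genes known as its targets or partners. They were chosen by symbol, with earlier results of these data known. Shares and medians of the list beside those of all tested genes therefore only describe it. Every listed symbol was found in at least 1 of 4 deposited count tables, out of 20847 symbols in all. Of the 34, 33 were listed for stem cells (all but Dram1), 33 for GV oocytes (all but Bbc3), 34 for post-GV oocytes and 29 for round spermatids (without Bax, Eda2r, Gdf15, Dcxr and Ephx1), and 27 stood in all 4 tables. By role, 5 form p53 and its feedback, 4 act on the cell cycle, 7 are death effectors, 5 are death receptors or membrane-linked, 5 serve DNA repair and 8 serve metabolism, autophagy, RNA binding or signalling.

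The study sequenced RNA from 27 mouse libraries in 12 groups after loss of Mettl3, the catalytic subunit of the enzyme that writes the mRNA mark N6-methyladenosine (m6A), or of Ythdf1, Ythdf2 and Ythdf3, cytoplasmic proteins that bind the mark. Embryonic stem cells of the line KH2 (C57BL/6 x 129/Sv), grown in serum with LIF, were WT, Ythdf1-/-, Ythdf2-/-, Ythdf3-/-, Ythdf1-/-Ythdf2-/-Ythdf3-/- (the triple knockout) or Mettl3-/-, with 2 libraries each from poly(A) RNA. The labels do not say whether the 2 libraries came from separate cultures or clones, so p-values measure only the spread between these samples, which may be technical. Germinal vesicle (GV) oocytes came from Mettl3f/f Zp3-Cre+ mice (3 libraries, the conditional knockout) and Mettl3f/f Zp3-Cre- mice (4 libraries, the controls) on a BDF1 X C57BL/6 X Jax#003651 background, by SMART-seq2. Zp3-Cre is active in growing oocytes, both groups carry the floxed Mettl3 allele, and each library pools the oocytes of 1 mouse. Post-GV oocytes came from Ythdf2-/- (2 libraries) and Ythdf2+/- mice (3 libraries, so the controls lack 1 copy), and FACS-isolated round spermatids, haploid germ cells after meiosis, from Ythdf2-/- (2 libraries) and Ythdf2+/+ mice (1 library), both on CB6F1 X C57BL/6. Spermatid RNA was depleted of ribosomal RNA. No ages are given in the labels used here.

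p53 is held low by Mdm2, a ubiquitin ligase that p53 itself induces, and stress that frees it from Mdm2 turns on genes for arrest, death, repair and metabolic change. Mouse embryonic stem cells carry much p53 protein while they divide rapidly. In oocytes the p53 relative TAp63 guards against DNA damage and uses the same death genes Bbc3 (PUMA) and Pmaip1 (NOXA).

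p53 binds pairs of a short palindromic element, the p53 half-site. Shown are 5 windows of listed genes, picked from those that hold a match. They are the 250 bases before an annotated start in RefSeq (GRCm38.p6), written 5′ to 3′ in the direction of the gene, with matches to the p53 half-site consensus in capitals. Cdkn1a lies at chr17:29090729-29090978 (plus strand), Ccng1 at chr11:40755287-40755536 (minus strand), Aen at chr7:78895808-78896057 (plus strand), Mdm2 at chr10:117710759-117711008 (minus strand) and Trp53 at chr11:69580109-69580358 (plus strand).
Cdkn1a: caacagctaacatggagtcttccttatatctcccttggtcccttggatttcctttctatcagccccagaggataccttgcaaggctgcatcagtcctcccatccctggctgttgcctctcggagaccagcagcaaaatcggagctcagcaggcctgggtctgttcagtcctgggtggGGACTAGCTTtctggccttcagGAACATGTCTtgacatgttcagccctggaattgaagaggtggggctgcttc
Ccng1: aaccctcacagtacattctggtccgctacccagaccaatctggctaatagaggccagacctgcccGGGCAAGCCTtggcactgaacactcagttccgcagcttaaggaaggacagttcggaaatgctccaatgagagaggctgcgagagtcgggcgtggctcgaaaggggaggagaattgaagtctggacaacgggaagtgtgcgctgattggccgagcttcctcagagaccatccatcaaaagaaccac
Aen: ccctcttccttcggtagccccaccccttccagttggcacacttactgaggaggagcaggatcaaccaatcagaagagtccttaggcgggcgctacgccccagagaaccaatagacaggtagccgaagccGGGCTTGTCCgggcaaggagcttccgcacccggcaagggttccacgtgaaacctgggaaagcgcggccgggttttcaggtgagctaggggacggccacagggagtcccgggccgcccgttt
Mdm2: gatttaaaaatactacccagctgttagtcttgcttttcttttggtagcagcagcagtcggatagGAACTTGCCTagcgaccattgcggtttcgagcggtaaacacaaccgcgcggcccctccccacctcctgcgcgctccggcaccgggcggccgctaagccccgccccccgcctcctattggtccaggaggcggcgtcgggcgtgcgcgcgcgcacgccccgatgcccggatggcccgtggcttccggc
Trp53: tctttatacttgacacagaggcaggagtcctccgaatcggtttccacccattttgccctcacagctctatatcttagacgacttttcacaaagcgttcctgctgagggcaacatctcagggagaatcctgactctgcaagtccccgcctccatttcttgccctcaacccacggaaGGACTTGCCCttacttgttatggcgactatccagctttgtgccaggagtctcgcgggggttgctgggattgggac

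The Cdkn1a window holds 2 matches, whose first bases lie 73 and 51 bases before the start, and a second annotated start of Cdkn1a has none in its window. The matches of Ccng1, Aen, Mdm2 and Trp53 begin 185, 121, 186 and 75 bases before the start. RefSeq windows were found for 26 of the 34 genes, and 10 of those 26 (38.5%) held at least 1 match in a window: these 5 and Bax, Ckap2, Ei24, Sesn1 and Polk. Over all 27025 genes with a window the share was 8.20%. Eda2r, Phlda3, Plk2 and Gtse1, which were called in results below, had windows without a match. Rrm2b and Pmaip1, also called below, had no window, and Mdm2 was called in no comparison. The windows end at RefSeq starts, and GENCODE M21 places the starts of Aen, Ccng1 and Cdkn1a further upstream, inside the windows shown. The Aen match lies after its GENCODE start, and the window of another annotated start of Aen has no match. The consensus reads the same on both strands, and a match describes the letters only.

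The stem cell libraries were the shallowest, with totals of 612598-1111764 counts. Totals were 6484397-18181397 for the GV oocyte libraries, 12409822-25015081 after the GV stage and 18843689-32759740 for round spermatids. Mettl3 itself stood at 18.1 and 15.2 CPM (counts scaled to the library total) in the Mettl3-/- stem cells against 141 and 137 in WT, and at 3.47, 1.35 and 0.901 in the conditional knockout oocytes against 41.7, 28.1, 13.2 and 25.8 in controls. Transcripts of Ythdf1, Ythdf2 and Ythdf3 were not called lower in their own knockouts. The deleted part of those genes is not in the labels, so this checks nothing. The 6 pluripotency markers summed to 2960.0-3676 CPM in all stem cell groups, the 7 oocyte markers to 13431-25521 CPM in GV and 3770.1-9448 CPM in post-GV oocytes, and the 9 spermatid markers to 7957-13454 CPM in spermatids.

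Levels per exon length in control libraries set the ground for the comparisons. Per kilobase of exon, WT stem cells carried most RNA of Bax (120.2 ± 5.95 CPM per kb, SD, n = 2), whose protein opens the mitochondrial membrane, followed by Trp53 (76.3 ± 4.48), Phlda3 (75.2 ± 15.7) and Cdkn1a (73.5 ± 1.79), which lay within their spread of each other. Control GV oocytes carried most Ckap2 (59.7 ± 2.81 CPM per kb, SD, n = 4), a spindle protein, then Rrm2b (35.7 ± 4.88), a ribonucleotide reductase subunit, and Mdm2 (27.8 ± 2.78). Heterozygous post-GV oocytes were led by Rrm2b (66.0 ± 34.5 CPM per kb, SD, n = 3) and Mdm2 (49.0 ± 20.5), whose spreads overlapped. The 1 wild-type spermatid library held Mdm2 at 71.8 and Polk, a translesion polymerase, at 30.8 CPM per kb, while Trp53 stood at 0.308 and Cdkn1a at 0.171. By this measure Mdm2 ranked among the first 3 of the listed genes in all 3 germ cell control groups and the 15th in stem cells.

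**Figure D1:**
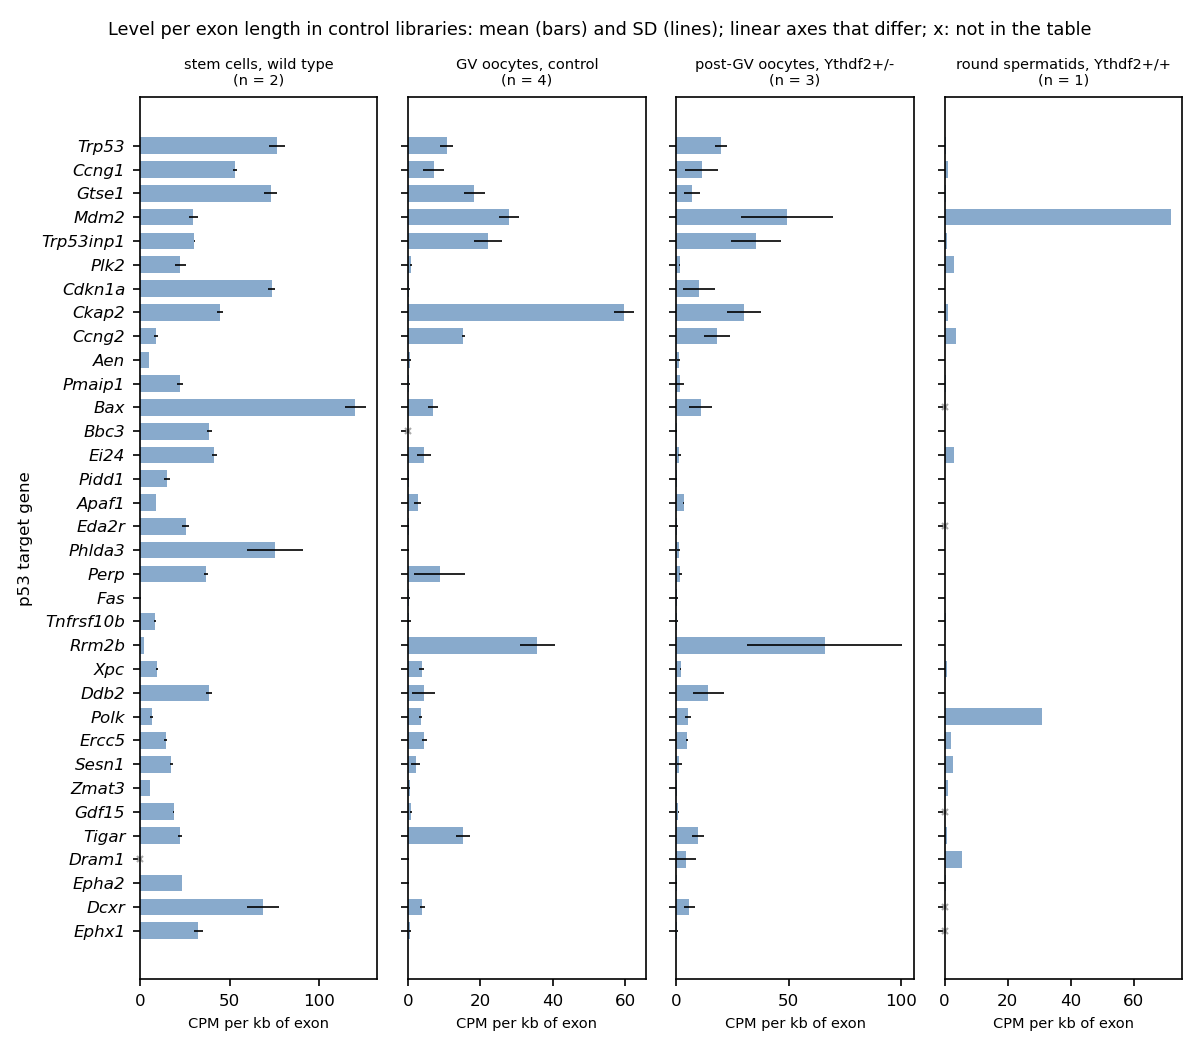
Level of each p53 target gene per kilobase of exon (CPM per kb, linear axes that differ between panels) in the control libraries of the 4 experiments, as group means with SD lines and crosses for genes not in a table. Bax leads in stem cells at 120.2 CPM per kb, Ckap2 in GV oocytes, Rrm2b in post-GV oocytes and Mdm2 in spermatids at 71.8 CPM per kb.

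Loss of the writer Mettl3 in stem cells moved more of the p53 target genes than any reader knockout did, and mostly downward. Of 32 tested genes (Fas lay under the filter on low counts), 15 fell and 3 rose at an adjusted p under 0.05 (edgeR's quasi-likelihood test, Benjamini-Hochberg adjustment over all tested genes, called below). Over all 11951 tested genes 30.4% were called, 15.1% lower and 15.2% higher. The median log2 change of the 32 was -0.34, beside -0.00 for all tested genes, and 22 of the 32 lay below 0. Because the list was chosen with earlier results of these data known, these values describe it and test nothing about it. The lower genes span the feedback group (3 of 5 tested), the cell cycle group (3 of 4), the death effectors (4 of 7), the receptors and membrane genes (2 of 4) and metabolism and signalling (3 of 7), and no DNA repair gene (0 of 5) fell. In bulk samples, fewer cells of a type and less RNA per cell cannot be told apart. Replicate stem cell libraries differed by less than counting noise (mean chi-square of 0.675 to 0.832 per gene). The standard errors and adjusted p-values of all stem cell contrasts rest on that spread and may be too small.

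The triple reader knockout, tested against the same WT libraries, moved 11 of the 32 genes, 8 up and 3 down, where 25.1% of all tested genes were called, 13.3% higher and 11.8% lower, and the median was 0.06. Set directly against Mettl3-/- cells, the triple knockout was higher at 13 and lower at 1 of the 32 genes, against a background of 19% called, 10.5% higher and 8.5% lower. The median of this difference was 0.38, and 28 of the 32 genes lay above 0. That contrast shares the triple and the Mettl3-/- libraries with those before it, so its values stand beside theirs and are not a separate sample.

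**Figure D2:**
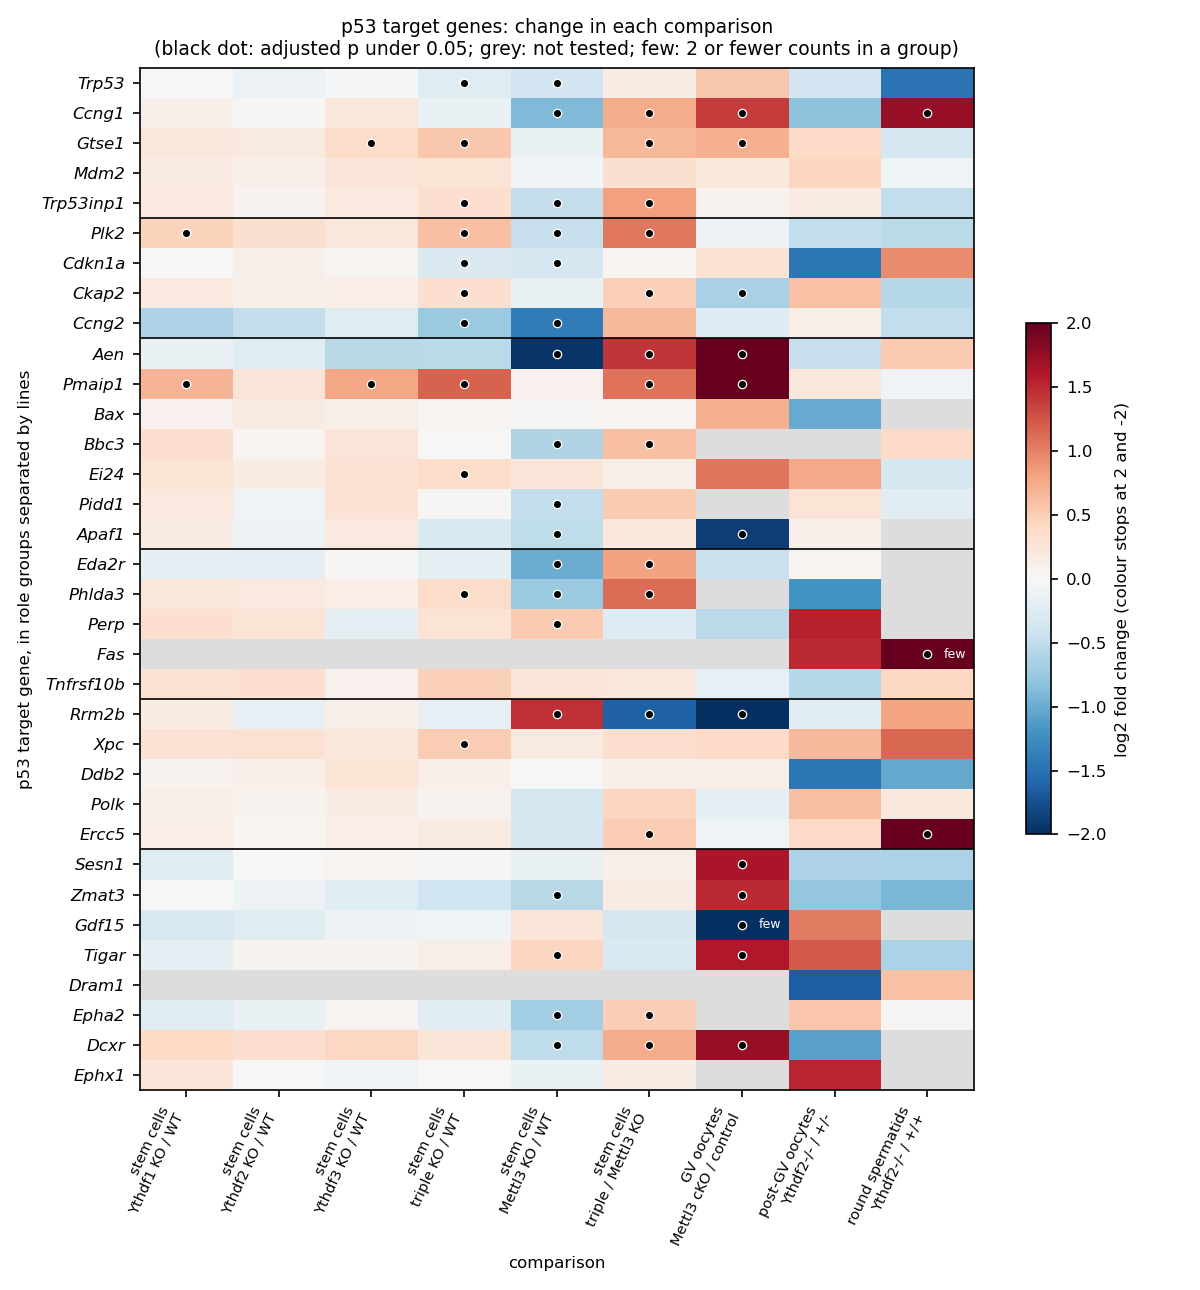
Log2 fold change (colour, stopping at 2 and -2) of the 34 p53 target genes (rows, in role groups) in the 9 comparisons (columns), with a black dot where the adjusted p was under 0.05, grey where a gene was not tested and "few" where a group held 2 or fewer counts. The Mettl3-/- stem cell column has dots on 15 blue and 3 red cells and the triple against Mettl3-/- column on 13 red and 1 blue.

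Trp53 itself (chr11:69580359-69591873, GRCm38, GENCODE M21) stood at 322 and 296 CPM in WT, 228 and 242 in Mettl3-/- and 260.5 and 261 in triple knockout cells. All 4 of these knockout libraries lay below both WT libraries, and Trp53 fell by 0.38 ± 0.08 on the log2 scale (SE) in Mettl3-/- (adjusted p = 0.00037) and by 0.24 ± 0.08 in the triple knockout (adjusted p = 0.0397). In the single knockouts it stood at 320.0 and 302 (Ythdf1-/-), 282 and 289 (Ythdf2-/-) and 313 and 294 CPM (Ythdf3-/-), with no call. Mdm2, the ligase that degrades p53, did not pass in any of the 6 stem cell contrasts: it stood at 160.4 and 143 CPM in WT, 135 and 155 in Mettl3-/- and 179 and 185 in the triple knockout. In the single knockouts Mdm2 stood at 173 and 165 CPM (Ythdf1-/-), 171 and 156 (Ythdf2-/-) and 182 and 179 (Ythdf3-/-). Its log2 change was -0.05 ± 0.10 (adjusted p = 0.809) in Mettl3-/-, where the groups overlapped, and 0.27 ± 0.10 (adjusted p = 0.0893) in the triple knockout, where they did not.

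Ccng1 (chr11:40748552-40755311), cyclin G1, which brings a phosphatase to Mdm2, stood at 189 and 184 CPM in WT, 103 and 99.6 in Mettl3-/- and 179 and 162 in triple knockout cells. Both Mettl3-/- libraries lay far under all 10 other stem cell libraries. The log2 change was -0.88 ± 0.11 (adjusted p = 1.14e-09) in Mettl3-/- against WT and 0.75 ± 0.12 (adjusted p = 1.52e-05) in the triple knockout against Mettl3-/-. Trp53inp1, a nuclear protein that promotes p53 activity, was also lowest in Mettl3-/-: 198 and 195 CPM in WT, 148 and 137 in Mettl3-/- and 259 and 241 in the triple knockout. It fell in Mettl3-/- (log2 change -0.47 ± 0.11, adjusted p = 0.000568) and rose in the triple knockout (0.34 ± 0.09, adjusted p = 0.00763). Gtse1, which carries p53 out of the nucleus, stood at 193 and 207 CPM in WT, 176 and 187 in Mettl3-/- and 290.1 and 289 in the triple knockout, the highest of the 6 groups. It rose in the triple knockout (log2 change 0.53 ± 0.08, adjusted p = 2.56e-06) and was not called in Mettl3-/- (-0.13 ± 0.09, adjusted p = 0.403).

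Among the cell cycle genes, Cdkn1a (chr17:29090976-29100727), which encodes the CDK inhibitor p21, stood at 266 and 257 CPM in WT, 210.2 and 204 in Mettl3-/- and 228 and 199.9 in the triple knockout. It stood at 264 and 260.2 CPM in Ythdf1-/-, 264 and 304 in Ythdf2-/- and 261 and 282 in Ythdf3-/- cells. The 4 libraries without Mettl3 or without all 3 readers were the lowest of the 12, with log2 changes of -0.34 ± 0.09 (adjusted p = 0.00447) and -0.30 ± 0.09 (adjusted p = 0.0206), and the triple knockout against Mettl3-/- gave 0.04 ± 0.10 (adjusted p = 0.847). Ccng2, a cyclin linked to arrest, stood at 52.2 and 45.5 CPM in WT, 18.1 and 18.7 in Mettl3-/- and 26.5 and 31.5 in the triple knockout, and fell in both (log2 changes -1.40 ± 0.24, adjusted p = 1.14e-05 and -0.74 ± 0.22, adjusted p = 0.0203). Plk2, a polo-like kinase, moved in opposite directions: 111 and 90.9 CPM in WT, 77.2 and 70.3 in Mettl3-/- and 164 and 142 in the triple knockout. Its log2 change was -0.46 ± 0.13 (adjusted p = 0.0222) in Mettl3-/- and 0.60 ± 0.11 (adjusted p = 0.000258) in the triple knockout. Ckap2 stood at 141 and 148 CPM in WT, 131 and 129 in Mettl3-/- and 186 and 178 in the triple knockout and rose in the last (log2 change 0.33 ± 0.10, adjusted p = 0.0315).

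Of the death effectors, Aen (chr7:78895854-78911209), an apoptosis-enhancing nuclease, was the most reduced in fold in Mettl3-/- cells: 29.7 and 29.4 CPM in WT, 4.93 and 9.37 in Mettl3-/- and 18.7 and 21.9 in the triple knockout. Both Mettl3-/- libraries lay under all others (log2 change -1.95 ± 0.34, adjusted p = 1.5e-05). Bbc3, a BH3-only activator of Bax, stood at 80.2 and 84.7 CPM in WT, 54.2 and 53.9 in Mettl3-/- and 79.5 and 83.5 in the triple knockout, and fell in Mettl3-/- (log2 change -0.61 ± 0.15, adjusted p = 0.00663). Pidd1, a scaffold that activates a caspase, and Apaf1, the scaffold of the apoptosome, also fell in Mettl3-/-. Pidd1 stood at 63.1 and 74.0 CPM in WT, 46.0 and 50.4 in Mettl3-/- and 74.9 and 65.7 in the triple knockout (log2 change -0.50 ± 0.17, adjusted p = 0.0478 in Mettl3-/-). Apaf1 stood at 81.1 and 81.1 CPM in WT, 65.7 and 50.4 in Mettl3-/- and 65.5 and 65.7 in the triple knockout (-0.51 ± 0.15, adjusted p = 0.024 in Mettl3-/-). Neither was called in the triple knockout.

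Pmaip1, the BH3-only protein NOXA, had another pattern. It stood at 64.0 and 58.0 CPM in WT, 92.2 and 103 in Ythdf1-/-, 72.4 and 73.3 in Ythdf2-/-, 102 and 106 in Ythdf3-/-, 140.4 and 136 in the triple knockout and 62.4 and 66.8 in Mettl3-/- cells. The triple knockout libraries were the highest of the 12 (log2 change 1.17 ± 0.13, adjusted p = 2.37e-11), and the Mettl3-/- libraries overlapped WT (log2 change 0.09 ± 0.15, adjusted p = 0.764). The difference between the triple knockout and Mettl3-/- was 1.08 ± 0.14 (adjusted p = 3.8e-08). Bax, the effector that Bbc3 activates, stood at 183 and 196 CPM in WT, 191 and 193 in Mettl3-/- and 199.6 and 194 in the triple knockout. Bax had no call in any stem cell contrast. Ei24, a membrane protein of the endoplasmic reticulum, stood at 206 and 197 CPM in WT and 239 and 279 in the triple knockout (log2 change 0.37 ± 0.09, adjusted p = 0.00297), and at 269 and 217 in Mettl3-/- with no call.

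Among receptors and membrane-linked genes, Eda2r, a receptor of the ligand ectodysplasin A2, stood at 141 and 159 CPM in WT, 70.6 and 78.5 in Mettl3-/- and 145 and 120.5 in the triple knockout (log2 change -1.0 ± 0.12, adjusted p = 1.45e-09 in Mettl3-/-). Phlda3, an inhibitor of the kinase Akt, stood at 100 and 135 CPM in WT, 78.8 and 63.3 in Mettl3-/- and 137 and 163 in the triple knockout. It fell in Mettl3-/- (log2 change -0.75 ± 0.14, adjusted p = 4.74e-05) and rose in the triple knockout (0.36 ± 0.12, adjusted p = 0.0331), where its groups nearly touched. Perp, a membrane protein of desmosomes, rose in Mettl3-/- from 70.3 and 73.1 to 105 and 102 CPM (log2 change 0.53 ± 0.13, adjusted p = 0.00707). Tnfrsf10b, the receptor of the death ligand TRAIL, was not called, at 44.1 and 49.0 CPM in WT, 55.8 and 55.1 in Mettl3-/- and 71.7 and 58.9 in the triple knockout. Fas, the receptor of the Fas ligand, stood at 0 to 8.37 CPM over the 12 libraries and was not tested.

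In the repair group 1 gene was called in Mettl3-/- cells, Rrm2b (chr15:37923952-37961318), the p53-induced subunit that supplies deoxynucleotides for repair. Rrm2b stood at 22.5 and 21.4 CPM in WT, 67.3 and 56.2 in Mettl3-/- and 18.7 and 20.5 in the triple knockout. Both Mettl3-/- libraries lay above the other 10 libraries, with a log2 change of 1.46 ± 0.21 (adjusted p = 9.8e-08) against WT and -1.62 ± 0.25 (adjusted p = 9.47e-07) for the triple knockout against Mettl3-/-. Xpc, which recognises lesions, stood at 54.1 and 49.9 CPM in WT and 73.3 and 75.3 in the triple knockout, where it rose (log2 change 0.52 ± 0.16, adjusted p = 0.038). Ercc5, a repair endonuclease, was higher in the triple knockout (98.3 and 93.1 CPM) than in Mettl3-/- (69.0 and 65.6 CPM), at 0.51 ± 0.15 (adjusted p = 0.0425), and Ddb2 and Polk were not called. Ddb2, which finds ultraviolet lesions, stood at 102 and 109 CPM in WT, 108 and 103 in Mettl3-/- and 106 and 119 in the triple knockout. A stretch of 23.8% of the exon bases of Ddb2 is shared with Acp2 on the other strand, and 12.2% of those of Bax with Gm45808 on the same strand, so their counts are uncertain.

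In the last group, Epha2, a receptor tyrosine kinase, fell in Mettl3-/- from 111 and 109.7 to 70.6 and 65.6 CPM (log2 change -0.70 ± 0.13, adjusted p = 0.000224) and stood at 81.1 and 108 in the triple knockout. Dcxr, a carbonyl and xylulose reductase, went from 71.2 and 85.6 to 47.6 and 60.9 CPM (-0.50 ± 0.15, adjusted p = 0.0313) and stood at 88.9 and 95.8 in the triple knockout. Zmat3, a zinc finger RNA-binding protein, went from 66.7 and 64.2 to 46.0 and 43.3 CPM (-0.56 ± 0.18, adjusted p = 0.0304). Tigar, a phosphatase that limits glycolysis, rose from 78.4 and 84.7 to 107 and 111 CPM (0.42 ± 0.12, adjusted p = 0.027). Sesn1, Gdf15 and Ephx1 were not called in any stem cell contrast. Of these, Gdf15, a stress cytokine, stood at 35.1 and 34.8 CPM in WT, 39.4 and 43.3 in Mettl3-/- and 35.9 and 30.1 in the triple knockout, and Sesn1, a sestrin that restrains mTORC1, at 72.1 and 66.9, then 73.9 and 55.1, then 76.4 and 61.6. Triple knockout against Mettl3-/- was called higher for Aen (1.42), Bbc3 (0.59), Ckap2 (0.48), Dcxr (0.74), Eda2r (0.81), Epha2 (0.50), Gtse1 (0.66), Phlda3 (1.11), Plk2 (1.06) and Trp53inp1 (0.82), besides Ccng1, Pmaip1 and Ercc5, as log2 differences.

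**Figure D3:**
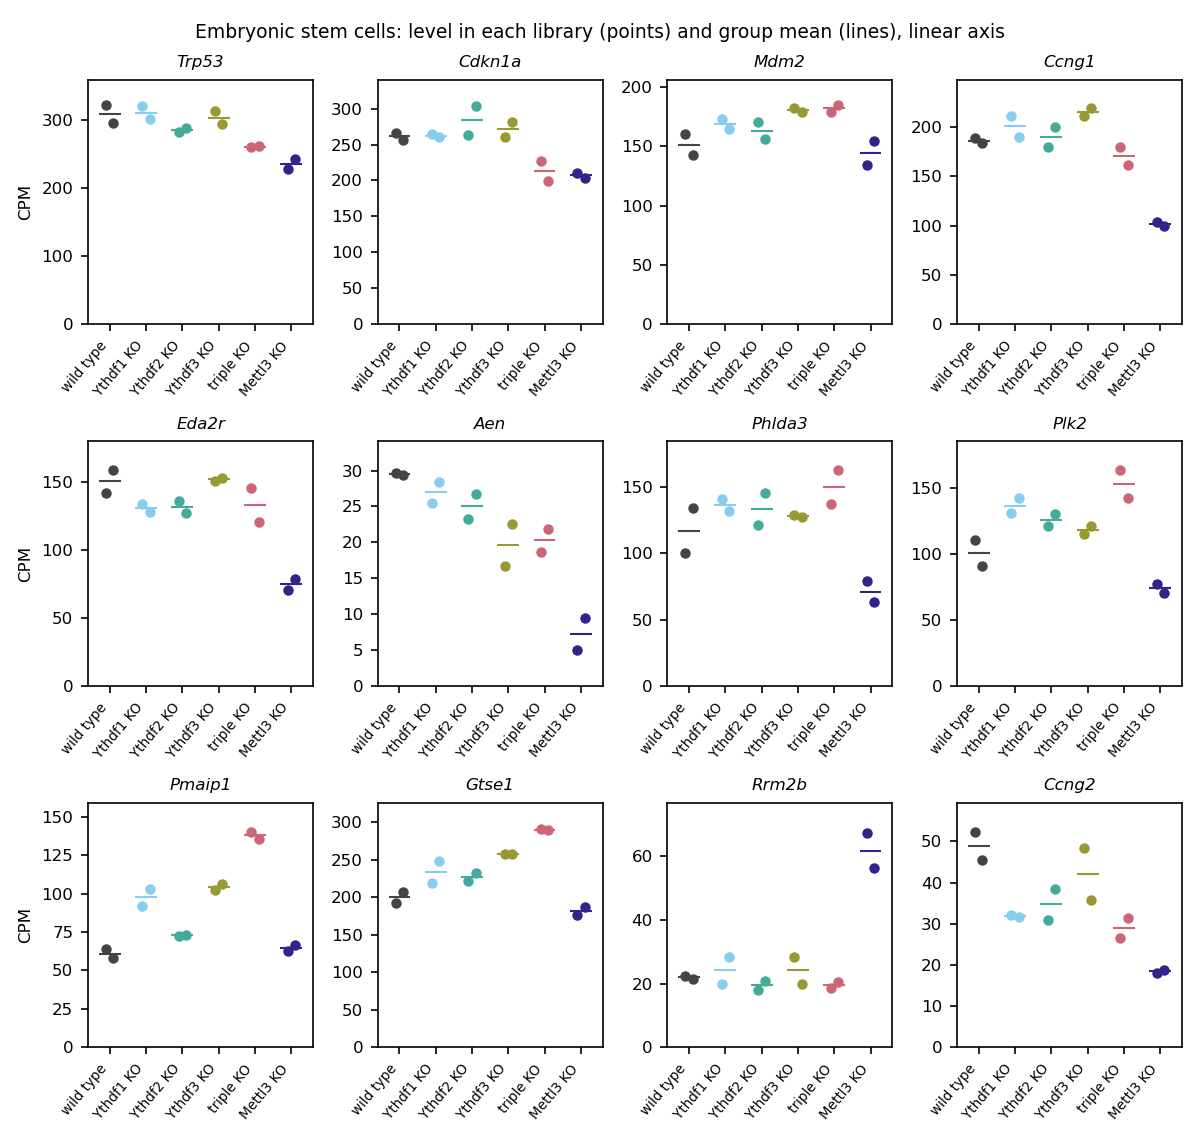
CPM (linear axis from 0) of 12 p53 target genes in each of the 12 stem cell libraries (points) with group means (lines). Mettl3-/- points are the lowest for Ccng1, Eda2r, Aen, Phlda3, Plk2 and Ccng2 and the highest for Rrm2b, and triple knockout points are the highest for Pmaip1 and Gtse1.

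The 3 single reader knockouts moved few of these genes. Over their 6 libraries Ccng1 ranged over 179.7-219 CPM, Aen over 16.7-28.4, Eda2r over 127-153, Phlda3 over 122-145 and Rrm2b over 18.1-28.4. None of these ranges reached a Mettl3-/- library. Plk2 (131 and 142 CPM, log2 change 0.44 ± 0.11, adjusted p = 0.0328) and Pmaip1 (0.68 ± 0.13, adjusted p = 0.00245) rose in Ythdf1-/- cells, 2 of 32 genes where 3.45% of all tested genes were called, 1.95% higher and 1.5% lower. Gtse1 (258 and 258 CPM, 0.37 ± 0.09, adjusted p = 0.0224) and Pmaip1 (0.78 ± 0.14, adjusted p = 0.00119) rose in Ythdf3-/- cells, again 2 of 32, where 2.84% of all tested genes were called, 1.74% higher and 1.1% lower. In Ythdf2-/- cells no p53 target gene was called by edgeR or DESeq2, and edgeR called 1.91% of all tested genes (0.837% higher and 1.07% lower). An unadjusted edgeR p under 0.05 held for 3 of the 32, beside 1412 of all 11951 tested genes. The medians over the 32 genes were 0.15, 0.07 and 0.13 in Ythdf1-/-, Ythdf2-/- and Ythdf3-/- cells. Each of these 4 calls was lost with 1 library left out: Plk2 and Pmaip1 without WT library B or Ythdf1-/- library B, Plk2 also without Ythdf1-/- library A, Gtse1 and Pmaip1 without Ythdf3-/- library B, and Gtse1 also without WT library A or Ythdf3-/- library A.

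Leaving out each of the 4 libraries in turn kept 8 of the 18 calls in Mettl3-/- throughout (Trp53, Ccng1, Eda2r, Aen, Phlda3, Rrm2b, Epha2 and Ccng2). It kept 3 of 11 in the triple knockout (Plk2, Pmaip1 and Gtse1) and 8 of 14 in the direct contrast (Ccng1, Eda2r, Phlda3, Plk2, Pmaip1, Gtse1, Trp53inp1 and Rrm2b). The falls of Trp53 and Cdkn1a in the triple knockout were thus lost, both without WT library A or triple knockout library B and Trp53 also without triple knockout library A. The fall of Cdkn1a in Mettl3-/- was lost without Mettl3-/- library B. DESeq2 called 7 genes in Mettl3-/- (Ccng1, Eda2r, Aen, Phlda3, Epha2, Ccng2 and Rrm2b), with 1241 genes in all, and Pmaip1 and Gtse1 in the triple knockout, with 785 in all. In the authors' deposited table, 5 p53 target genes were lower and 1 higher in Mettl3-/- at an adjusted p under 0.05. The lower were Ccng1, Eda2r, Aen, Phlda3 and Ccng2, the higher was Rrm2b, and 1137 genes passed in all. Pmaip1 and Gtse1 were higher in the triple knockout in that table, where 673 genes passed in all.

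Markers of other states moved with these groups. The 9 markers of 2-cell-like cells summed to 46.4-52.2 CPM in WT, 57.5-65.6 in Mettl3-/-, 505-561 in Ythdf1-/-, 104-118 in Ythdf2-/-, 250-276 in Ythdf3-/- and 981-1003 in the triple knockout. The 8 fibroblast feeder markers, of which 5 were in the table, summed to 75.6-84.3 CPM in Mettl3-/-, 122-127 in the triple knockout and 111-130 in WT. Within that list Thy1 rose in Mettl3-/- while Col1a1 and Pdgfrb fell (2.02, -0.88 and -1.34 as log2 changes). The Sertoli cell list, 3 of 5 in the table, summed to 74.0-77.5 CPM in WT, 101-102 in Mettl3-/- and 299.8-326 in the triple knockout, most of it from Rhox5. Cd68, the 1 of 5 blood and immune markers in the table, stood at 149-160.5 CPM in WT, 90.2-93.6 in Mettl3-/- and 79.5-116 in the triple knockout. Spermatocyte markers (4 of 6) summed to 229.7-234 CPM in WT, 151-201 in Mettl3-/- and 360.3-368 in the triple knockout. The part of these markers in the results was not tested.

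The wider p53 pathway was read from 4 further gene lists, also chosen with earlier results of these data known. In no comparison was it checked whether their called genes pass the filter on low counts without the group where they are higher. Of 27 tested other p53-induced genes, 10 fell and 3 rose in Mettl3-/- cells, and 10 were higher and 0 lower in the triple knockout against Mettl3-/-, with medians of -0.06 and 0.23. That is 48.1% and 37% of the list, where 30.4% and 19% of all tested genes were called. The strongest were Cd80, a T cell costimulator (-3.00 ± 0.33, adjusted p = 1.49e-11), Psrc1, a spindle protein (-0.75 ± 0.10, adjusted p = 1.62e-09), and Steap3, a ferrireductase that rose (1.54 ± 0.19, adjusted p = 5.56e-10). Of 23 tested regulators of p53, 6 fell and 1 rose in Mettl3-/-, among them Chek2, a kinase that phosphorylates p53 (-0.70 ± 0.16, adjusted p = 0.000737), Cdkn2a, whose locus encodes the Mdm2 inhibitor ARF (-0.68 ± 0.14, adjusted p = 0.000962), and Rpl5, a ribosomal protein that binds Mdm2 (-0.65 ± 0.15, adjusted p = 0.00142). The 7 calls are 30.4% of that list, the same share as over all tested genes. In the triple knockout 2 of these 23 rose and 2 fell (17.4%, beside 25.1% of all tested genes). Of 30 cell cycle genes that p21 and the DREAM complex keep low, 7 rose and 4 fell in Mettl3-/-, and 7 rose and 3 fell in the triple knockout (36.7% and 33.3% of the list). Tk1, thymidine kinase, rose in both (1.05 and 0.59) and Mybl2 fell in both (-0.91 and -1.20). Of 23 other BCL2 family and caspase genes, 3 rose and 2 fell in Mettl3-/-, with Birc3, an inhibitor of apoptosis, at 1.72 ± 0.15 (adjusted p = 4.59e-15), and 1 rose and 2 fell in the triple knockout (21.7% and 13% of the list, both below the share of all tested genes).

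In GV oocytes without Mettl3, the p53 target genes moved in both directions. Of 27 tested genes, 8 were called higher and 4 lower, where 28.8% of all 13551 tested genes were called, 15.4% higher and 13.4% lower. The median log2 change was 0.21, beside 0.04 for all tested genes. By role, the metabolism group held 4 of the rises and 1 of the falls among 5 tested genes, that fall being Gdf15. The p53 feedback group and the death effectors held 2 rises each, 1 of the latter being Pmaip1. Gdf15 and Pmaip1 passed the filter on low counts only through the group where they are high, so they had to differ and count for nothing in these totals, which are 7 rises and 3 falls without them. Phlda3, Fas, Dram1, Epha2, Pidd1 and Ephx1 were under the filter.

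Trp53 stood at 74.8, 61.7 and 52.7 CPM in the 3 conditional knockout libraries and 41.5, 48.4, 49.4 and 34 in the 4 controls, with no overlap and no call (log2 change 0.54 ± 0.23, adjusted p = 0.0993). Mdm2 stood at 183, 157 and 151 CPM against 161, 135, 143 and 128 and overlapped (0.21 ± 0.18, adjusted p = 0.411). Cdkn1a was barely present, at 1.79, 1.29 and 1.5 against 0.625, 1.84, 1.36 and 1.22 CPM (0.29 ± 0.53, adjusted p = 0.704). Ccng1 rose, at 76.1, 76.1 and 43.4 CPM against 17.4, 22.5, 39.4 and 19.9, with every knockout library above every control (log2 change 1.40 ± 0.33, adjusted p = 0.0133). Gtse1 stood at 91.8, 67.6 and 88.5 CPM against 61.2, 44.5, 44.4 and 50.8 and rose (0.72 ± 0.22, adjusted p = 0.0339). The calls of Ccng1 and Gtse1 were lost without some libraries, Ccng1 without conditional knockout 1 or 2 and Gtse1 without any 1 of 6 of the 7 libraries.

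Rrm2b, among the most abundant of these transcripts in the oocyte, fell from 292, 392, 307 and 315 CPM in controls to 61.4, 96.1 and 89.1 in the conditional knockout, and the groups lay far apart (log2 change -1.99 ± 0.23, adjusted p = 0.000599). Apaf1 fell from 16.9, 25.4, 34.4 and 17.6 to 4.53, 7.91 and 6.76 CPM (-1.88 ± 0.37, adjusted p = 0.0057), and Ckap2 from 199.6, 192, 179 and 197 to 109.7, 132 and 125 CPM (-0.65 ± 0.18, adjusted p = 0.0216). Gdf15 stood at 0.972, 1.96, 2.10 and 1.40 CPM in controls and 0, 0.0643 and 0.15 in the knockout, from 65 and 2 pooled counts, a ratio of control to knockout of 30.5 with an exact counting interval of 8.10 to 257. No test is given for Gdf15. The call of Ckap2 was lost without knockout library 1, control 2 or control 4, and those of Rrm2b and Apaf1 were kept throughout.

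Pmaip1 stood at 1.18, 0.367, 1.26 and 0.561 CPM in controls and 22.2, 6.17 and 6.46 in the conditional knockout, a log2 change of 3.75 ± 0.63 that is given with no test. Knockout library 1 was the highest for Pmaip1, as it was for Aen (34.7, 12.5 and 2.70 against 3.61, 4.40, 2.10 and 0.936 CPM, 2.60 ± 0.77, adjusted p = 0.0307) and Sesn1 (44.8, 18.1 and 12.6 against 8.47, 5.38, 14.9 and 3.93 CPM, 1.63 ± 0.54, adjusted p = 0.0486). Knockout library 3 overlapped the controls for Aen and Sesn1, and both calls were lost without knockout library 1 or 2 and without control 2 or 4, and Sesn1 also without control 1. Tigar (156, 155 and 201 against 64.1, 50.3, 49.6 and 59.4 CPM, 1.61 ± 0.20, adjusted p = 0.000765) and Dcxr (15.8, 16.7 and 12.8 against 3.89, 5.14, 3.78 and 5.24 CPM, 1.74 ± 0.32, adjusted p = 0.00391) rose in all 3 libraries. Zmat3 rose from 4.37, 6.48, 7.03 and 3.65 to 15.8, 13.2 and 16.2 CPM (1.49 ± 0.35, adjusted p = 0.0118), a call lost without knockout library 1. Among the 15 tested genes with no call, Trp53inp1 and Ccng2 were the most abundant besides Mdm2, the first at 153, 175 and 122 against 118, 178, 145 and 134 CPM and the second at 91.0, 63.3 and 55.0 against 85.1, 80.0, 83.2 and 84.5 CPM. Ei24 stood at 40.7, 30.7 and 61.7 against 11.0, 21.4, 34 and 18.5 CPM, Ercc5 at 25.6, 16.1 and 32.4 against 23.6, 23.6, 31.3 and 26.5 CPM and Perp at 9.61, 12.9 and 12.8 against 9.24, 13.8, 37.1 and 7.86 CPM. The 15 had log2 changes between -0.53 and 1.06.

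**Figure D4:**
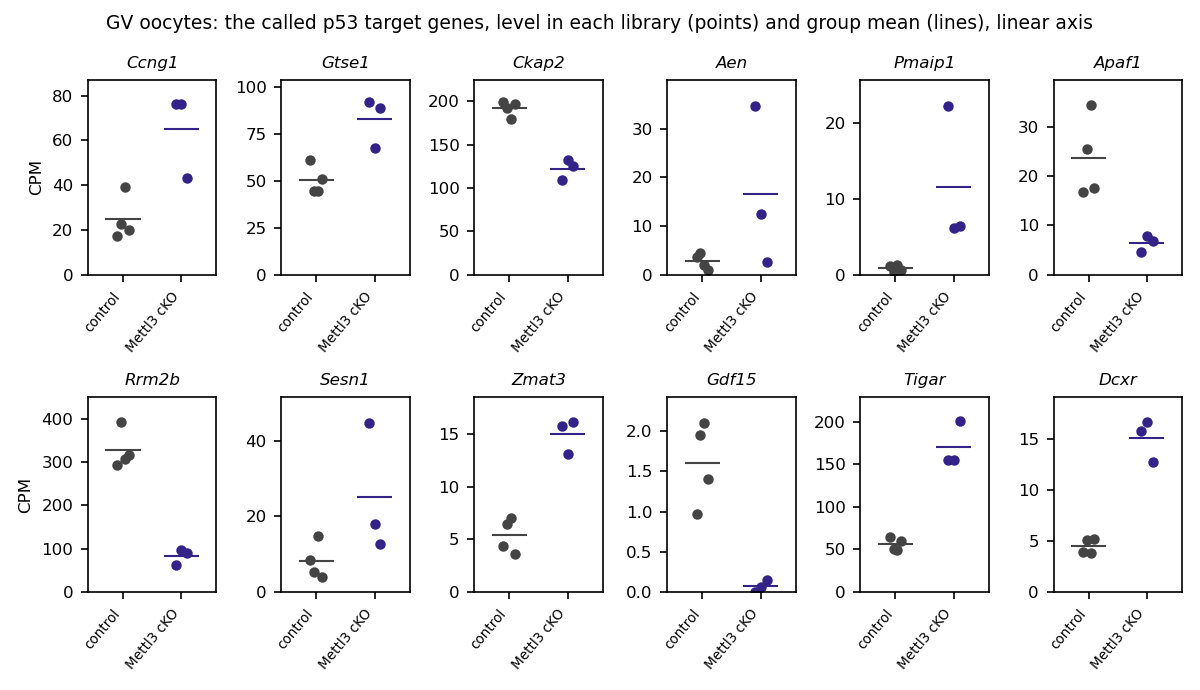
CPM (linear axis from 0) of the 12 called p53 target genes in each GV oocyte library (points) with group means (lines), 4 controls and 3 Mettl3 conditional knockouts. The groups are apart for all but Aen and Sesn1, where 1 knockout library lies among the controls. Gdf15 and Pmaip1 passed the filter on low counts only through their higher group, so they had to differ.

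In the conditional knockout the calls of Rrm2b, Tigar, Dcxr and Apaf1 were kept with each library left out in turn. Those of Pmaip1 and Gdf15 were kept too, but these 2 genes had to differ and do not count. Without conditional knockout 1 the count was 6 in all, Pmaip1 and Gdf15 included. Granulosa and cumulus cell markers (8 of 9 in the table) summed to 48.6-194 CPM in the conditional knockout and 251-1257 in controls. Without controls 2 and 3, which held the most, 11 genes were called. Among them were 10 of the 12 called above, Pmaip1 and Gdf15 included, and Aen and Gtse1 were lost. DESeq2 called all 12, again with Pmaip1 and Gdf15, and 1 more. The authors' deposited table held only Rrm2b of the list under an adjusted p of 0.05, and 212 genes in all.

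In the lists of the wider pathway, 1 of 24 tested p53 regulators rose and 2 fell in the conditional knockout: Mdm4, the Mdm2 relative that restrains p53 (-3.03 ± 0.21, adjusted p = 0.000169), fell from 3138, 2886, 2192 and 2619 to 288, 325 and 382 CPM, Trp73, a p53 relative, fell (-2.81 ± 0.55, adjusted p = 0.00515) and Sirt1, a deacetylase of p53, rose (1.00 ± 0.29, adjusted p = 0.0279). Among 23 other p53-induced genes 3 rose and 3 fell, with Sertad1, a cell cycle cofactor, at 3.70 ± 0.38 (adjusted p = 0.000366). Of 30 genes under p21 and DREAM 3 rose and 2 fell, Ccne1, cyclin E1, being highest (2.44 ± 0.28, adjusted p = 0.000613). Of 24 BCL2 family and caspase genes 4 rose and 2 fell, Casp8, an initiator caspase, having fallen by 2.4 ± 0.29 on the log2 scale (adjusted p = 0.000685). The called shares of the 4 lists, 12.5%, 26.1%, 16.7% and 25% in this order, were all below the 28.8% of all tested genes. Whether any of these called genes passed the filter on low counts only through its higher group was not checked.

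The 2 Mettl3 comparisons share no sample, and 27 p53 target genes were tested in both. Of these, 14 were called in stem cells and 12 in GV oocytes, and 7 in both (50% of the first and 58.3% of the second). The 12 include Gdf15 and Pmaip1, which had to differ in oocytes and are not among the 7. Without them the oocyte calls were 7 rises and 3 falls. Over all 10295 genes tested in both, 912 were called in both, which is 30.6% of the stem cell calls and 33.9% of the oocyte calls, and 352 of the 912 (38.6%) had opposite directions. The difference between these shares was not tested. Apaf1 fell in both and Tigar rose in both. The other 5 moved in opposite directions: Ccng1, Aen, Zmat3 and Dcxr fell in stem cells and rose in oocytes, and Rrm2b rose in stem cells and fell in oocytes. Rrm2b was also among the lowest of the list per exon length in WT stem cells (2.4 CPM per kb) and the second highest in control GV oocytes (35.7 CPM per kb). The 2 cell types were sequenced with different library kits, and the difference between them was not tested.

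In post-GV oocytes no p53 target gene differed between Ythdf2-/- and Ythdf2+/- at an adjusted p under 0.05, and 0% of all 13910 tested genes were called (782 had an unadjusted p under 0.05, and DESeq2 called 76). By edgeR 2 of the 33 tested genes, Perp and Tigar, had an unadjusted p under 0.05, and DESeq2 called 0. Cdkn1a spread widely between libraries, at 25.9 and 0.543 CPM in Ythdf2-/- and 38.8, 60 and 9.36 in Ythdf2+/- (log2 change -1.44 ± 1.42, adjusted p = 0.848). The 2 steroid synthesis genes of luteinized cumulus cells, Star and Cyp11a1, summed, stood at 369 and 25.1 CPM in the same 2 knockout libraries and 747, 1167 and 33.9 CPM in the 3 heterozygous ones, so the libraries low in one were low in the other. Their part in the result was not tested.

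The authors deposited batch-adjusted values for this table, whose shifts part Ythdf2-/- library 1 and Ythdf2+/- libraries 1 and 2 from Ythdf2-/- library 2 and Ythdf2+/- library 3. With a term for these 2 sets Cdkn1a had a log2 change of -1.90 ± 0.65 (adjusted p = 0.178), and within the sets its changes were -0.96 and -3.83, the second from 1 library against 1. The authors' deposited table gives Cdkn1a as lower in Ythdf2-/-, at -2.07 with an adjusted p of 0.0141. It was the only p53 target gene under 0.05 there, where 649 genes passed in all. With the term 1.85% of all tested genes (1.38% higher and 0.474% lower) and no p53 target gene were called. Trp53 stood at 68.6 and 53.7 CPM in Ythdf2-/- and 90.8, 68.5 and 79.9 in Ythdf2+/- (log2 change -0.38 ± 0.37, adjusted p = 0.848), and Mdm2 at 281 and 390.0 CPM against 228, 158 and 363 (0.43 ± 0.46, adjusted p = 0.848), both with overlapping groups. Rrm2b, the most abundant, stood at 447 and 594 against 444, 398 and 966 CPM (-0.21 ± 0.51, adjusted p = 0.915). Perp stood at 7.12 and 13.2 against 2.56, 3.14 and 4.73 CPM and Tigar at 49.1 and 116 against 31.5, 28.0 and 45.8 CPM, each with both knockout libraries above the 3 heterozygous ones. Bbc3 lay under the filter, and none of the genes in the 4 wider lists was called. The 33 log2 changes ran from -1.65 to 1.54, with a median of 0.12 beside -0.09 for all tested genes, and 19 lay above 0.

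In round spermatids, 3 of 26 tested p53 target genes were called higher in Ythdf2-/- and 0 lower, where 4.9% of all 16031 tested genes were called, 2.25% higher and 2.64% lower. One of the 3, Fas, passed the filter only through the knockout libraries, so it had to differ, and 2 remain without it. The wild-type group is 1 library, so its spread was assumed to be that of the 2 knockout libraries. Ercc5 stood at 11.3 CPM in Ythdf2+/+ and 50.1 and 57.9 in Ythdf2-/- (log2 change 2.26 ± 0.35, adjusted p = 6.19e-07), and the authors' deposited table also holds Ercc5, at 2.22 with an adjusted p of 7.41e-08. Ccng1 stood at 3.55 CPM in Ythdf2+/+ and 7.03 and 16.7 in Ythdf2-/- (1.75 ± 0.49, adjusted p = 0.0211), with the 2 knockout libraries far apart. Fas had 0 counts in Ythdf2+/+ and 16 and 37 in Ythdf2-/-, at least 13.2-fold higher against a floor of 3 counts over the control group, with no test given. DESeq2 called Ercc5 and gave Ccng1 an adjusted p of 0.108.

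Trp53 was nearly absent from spermatids, at 1.25 CPM in Ythdf2+/+ and 0.687 and 0.217 in Ythdf2-/- (-1.47 ± 1.29, adjusted p = 0.615), and Cdkn1a stood at 0.607 CPM against 1.22 and 1.13 (0.94 ± 1.17, adjusted p = 0.741). Mdm2 was the most abundant of the list, at 365 CPM against 375 and 311 (-0.09 ± 0.24, adjusted p = 0.899), followed by Polk at 171 CPM against 160.2 and 235, and in both the wild-type value lay between the 2 knockout values. Phlda3, Perp and Apaf1 lay under the filter. Spermatocyte markers summed to 602 CPM in Ythdf2+/+ and 395-472 in Ythdf2-/-, and spermatogonium markers to 15.9 and 28.0-30.6, and their part in these results was not tested. For the lists that follow, the background was 4.9% of all tested genes called and 2.64% lower, with 1 wild-type library. Of 28 tested genes under p21 and DREAM 6 fell, which is 21.4% of that list, among them Bub1b, a spindle checkpoint kinase (-1.43 ± 0.25, adjusted p = 1.46e-05), and of 25 tested p53 regulators 2 fell, Aurka, a mitotic kinase (-1.09 ± 0.23, adjusted p = 0.00086), and Kat5, an acetyltransferase (-1.06 ± 0.26, adjusted p = 0.00362). Of 22 other p53-induced genes 0 were called, and of 21 BCL2 family and caspase genes only Diablo, which frees caspases from their inhibitors, fell (-1.0 ± 0.24, adjusted p = 0.00337).

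**Figure D5:**
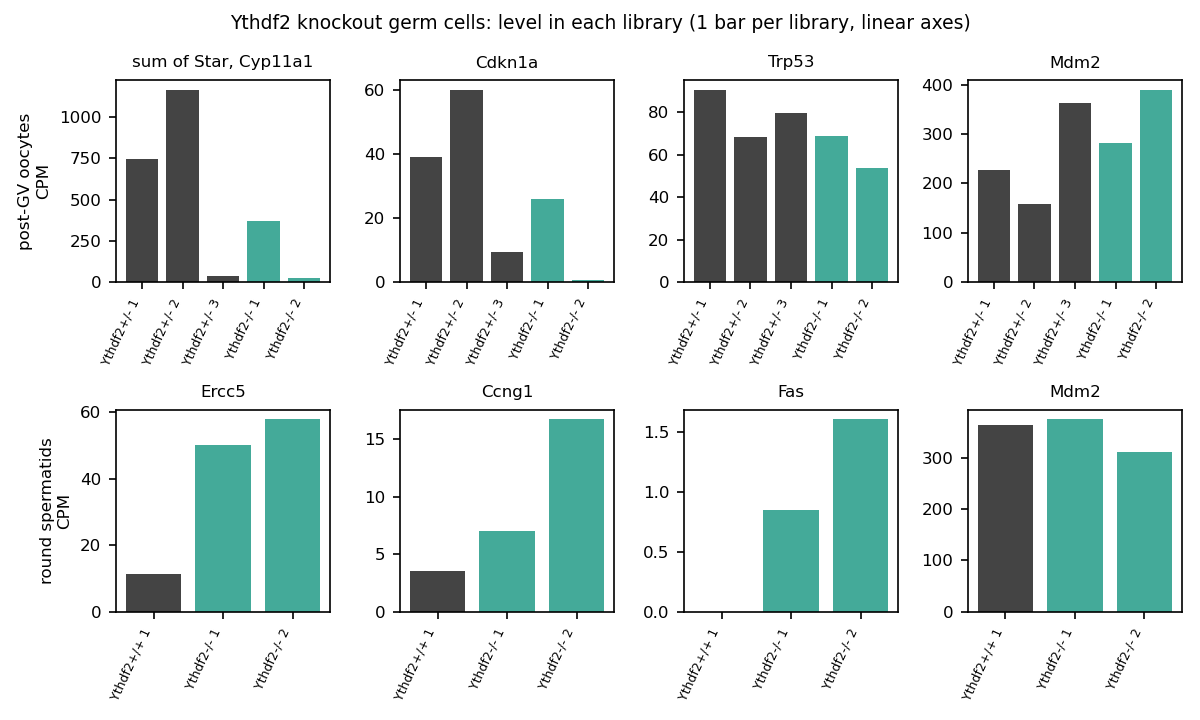
CPM per library (bars, linear axes from 0) in post-GV oocytes (top: the sum of Star and Cyp11a1, Cdkn1a, Trp53 and Mdm2) and round spermatids (bottom: Ercc5, Ccng1, Fas and Mdm2). Cdkn1a is lowest in the libraries with the least Star and Cyp11a1, and Ercc5 stands at 50.1 and 57.9 CPM in the knockout spermatids against 11.3 in the wild type.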

How the data were processed

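The authors deposited, for 27 libraries, whole-number counts per gene, and all tests used these counts. The submitters' processing notes name CASAVA 1.8.2, cutadapt, STAR 2.4.2a, DESeq2 and the build mm10. Which counter and annotation were used, and whether duplicates were removed, is not given in the sources used here. A gene is listed only if 1 library reached 6 counts. The deposited signal values (counts divided by size factors), log2 values and p-values are the authors' own and served for checks and for values attributed to their table. No column of library values was left without a sample. The title of 1 heterozygous post-GV library repeats replicate 2, and its bracketed name gives 3.

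Each experiment had its own fit, with all 12 stem cell libraries together: edgeR 4.0.16 in R 4.3.3 with limma 3.58.1, TMM scaling, filterByExpr by group and the robust quasi-likelihood test. Genes kept numbered 11951 of 14006 (stem cells), 13551 of 16598 (GV), 13910 of 16304 (post-GV) and 16031 of 17715 (spermatids). CPM values follow TMM scaling over tested genes, and exon lengths are GENCODE M21 unions. Errors of log2 changes are standard errors, and the counting interval is exact and covers counting error only.

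The members and lists were chosen with earlier results of these data known. All 34 symbols were accounted for: every library's value is given for Trp53, Cdkn1a and Mdm2, those of the libraries compared for each called gene, examples of the rest by abundance within roles, and from 4 pathway lists at most 3 called genes per comparison. Alternatives were DESeq2 1.42.0, RLE scaling, no filter, only the groups compared, a replicate block and each replicate left out. Chosen after seeing the data were a library-set term, the first library set alone and leaving out GV controls 2 and 3. Whether a called gene among the 34 passes the filter without the group where it is higher was also checked. Called genes of the 4 pathway lists were not checked in this way.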

Additional observations from a re-analysis of the deposited data

Results flagged for a closer look

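In the 4 GV oocyte controls, 2 of 27 tested p53 target genes had 1 library far from the other 3: Bax at 14.0 CPM in control 1 and Tnfrsf10b at 4.72 CPM in control 3. Chance alone sets about 1 group in 20 apart in this way.

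For 7 genes all Mettl3 knockout libraries lay above all controls in 1 cell type, stem cells or GV oocytes, and below them in the other. Only listed genes called in at least 1 of the 2 comparisons were considered. How many of all tested genes do so was not counted, so the number is not a result about the list. Gdf15 passed the filter in oocytes only through the controls, so it had to differ there. The log2 changes in stem cells and oocytes were -0.38 and 0.54 for Trp53, -0.88 and 1.40 for Ccng1, -0.13 and 0.72 for Gtse1, -0.56 and 1.49 for Zmat3, 0.25 and -4.65 for Gdf15 (a fitted value that rests on 2 knockout counts in oocytes), 1.46 and -1.99 for Rrm2b, and -0.50 and 1.74 for Dcxr. The difference between the 2 cell types was not tested.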

How the results depend on the processing

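The counts of called p53 target genes were 2, 0, 2, 11, 18 and 14 in the 6 stem cell contrasts (Ythdf1-/-, Ythdf2-/-, Ythdf3-/-, triple knockout, Mettl3-/-, triple against Mettl3-/-), 12 in GV oocytes, 0 in post-GV oocytes and 3 in spermatids, Gdf15, Pmaip1 and Fas included. With DESeq2 they were 0, 0, 0, 2, 7, 8, 13, 0 and 1, and DESeq2 also called fewer genes overall in stem cells (1241 against 3630 in Mettl3-/-, 785 against 2996 in the triple knockout and 678 against 2272 between them); the cause was not tested. Leaving out 1 library gave 0 to 2 in Ythdf1-/-, 0 to 2 in Ythdf3-/-, 4 to 9 in the triple knockout, 10 to 14 in Mettl3-/-, 9 to 12 in triple against Mettl3-/- and 6 to 12 in GV oocytes. The triple count was 5 without WT A, 6 without triple A and 4 without triple B, the Mettl3-/- count 10 without Mettl3-/- B, the contrast between them 9 without triple B or without Mettl3-/- A, the Ythdf1-/- count 1 without Ythdf1-/- A and the Ythdf3-/- count 1 without WT A or Ythdf3-/- A. RLE scaling and no filter kept every count within 1.5 times, and only Epha2 (direct contrast), Gtse1 and Sesn1 (GV) and Pidd1 (Mettl3-/-) crossed the threshold.

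The replicate block gave 2, 0, 2, 11, 18, 14, 12 and 0 called genes in the same order as above, and of the named genes only Sesn1 in GV oocytes was lost under it. The letters and numbers are not shown to pair samples: same-letter deviations correlated at -0.000967 to 0.116 in stem cells, at 0.417, 0.0919 and 0.245 in GV and at 0.432 and -0.606 in post-GV oocytes. No paired analysis was possible for spermatids because the groups share only 1 number.

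Among genes without a call, only Trp53, Cdkn1a and Mdm2 were followed with 1 library left out. Their log2 changes took both signs in 6 pairs of gene and contrast. In Ythdf1-/- the ranges were -0.047 (without WT B) to 0.078 for Trp53 and -0.017 (without WT B) to 0.038 for Cdkn1a. Trp53 in Ythdf3-/- ranged from -0.091 to 0.031 (without WT A), and Mdm2 in Mettl3-/- from -0.18 to 0.033 (without Mettl3-/- A). Cdkn1a in triple against Mettl3-/- ranged from -0.044 (without triple A) to 0.14, and Mdm2 in spermatids from -0.28 to 0.052 (without Ythdf2-/- 2). Other uncalled genes were not examined in this way. Spermatid fits without a library have no residual degrees of freedom and gave values only.

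In stem cells the 6 replicate pairs differed by a mean chi-square of 0.675 to 0.832 per gene, under counting noise, while pairs of GV, post-GV and spermatid libraries differed by at least 29.0. Standard errors and adjusted p-values in stem cells may therefore be too small. Stem cell depth limits the low genes.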
